A study of Mus musculus with 6 samples.

Results

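The 10 genes described here encode the myostatin, activin and follistatin pathway of skeletal muscle: 5 ligand genes (Mstn, Gdf11, Gdf5, Inhba and Inhbb), 2 antagonist genes (Fst and Fstl3) and 3 receptor genes (Acvr2a, Acvr2b and Acvr1b). They were chosen by symbol, and each symbol matched 1 of the 49315 Ensembl genes in the count tables. Gene counts came from RNA sequencing of the gastrocnemius, the large calf muscle, of mice at 3 months of age on a mixed C57BL/6 129 background. The tested animals are labelled mKO, a knockout of Hnrnpu restricted to muscle (3 libraries), and the control animals are labelled WT (3 libraries). Hnrnpu encodes an RNA-binding protein of the nucleus. Which promoter drives the deletion, and which exons it removes, is not given in the sources used here. The labels number the replicates without naming animals, so p-values measure only the spread between these libraries.

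Myostatin is made by muscle fibres as a precursor, is cleaved, and in its mature form limits muscle growth; mice without it have enlarged muscles. Myostatin, its close relative GDF11 and the activins bind the type II receptors ACVR2A and ACVR2B, which then activate type I receptors such as ALK4, the product of Acvr1b, and the signal passes to SMAD2 and SMAD3. Follistatin and the follistatin-like protein FSTL3 bind these ligands and keep them from the receptors. GDF5 belongs to the bone morphogenetic protein (BMP) branch of the family, which signals through SMAD1, SMAD5 and SMAD9 and counters muscle loss after denervation in mice.

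Mstn and Gdf11, a pair of paralogous genes on different chromosomes, had the largest changes among the 10 genes, and the sequences before their start sites are therefore shown. RefSeq promoter entries of the GRCm38.p6 build were found for 8 of the 10 genes; none was found for Gdf5 and Fst. The 250 bases before the annotated start are printed 5′ to 3′ on the strand of the gene, for Mstn at chr1:53061390-53061639 on the plus strand and for Gdf11 at chr10:128891719-128891968 on the minus strand. Capitals mark a block that both windows share, AGCCAATC and CTGACGACAC with 7 bases between them, of which 1 is the same in both, and the TATA box TATAAA.
Mstn: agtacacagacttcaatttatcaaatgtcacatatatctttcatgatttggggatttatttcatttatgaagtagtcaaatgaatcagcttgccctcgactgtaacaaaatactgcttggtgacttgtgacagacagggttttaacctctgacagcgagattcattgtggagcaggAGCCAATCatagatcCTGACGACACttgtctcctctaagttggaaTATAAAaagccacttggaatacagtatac
Gdf11: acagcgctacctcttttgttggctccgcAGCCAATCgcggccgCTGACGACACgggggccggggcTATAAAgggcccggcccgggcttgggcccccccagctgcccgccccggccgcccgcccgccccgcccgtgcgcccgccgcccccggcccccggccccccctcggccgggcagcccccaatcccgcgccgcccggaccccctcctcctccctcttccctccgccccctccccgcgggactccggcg
The shared block was noticed on reading these 2 windows. It joins the longest run of bases that the windows share and the longest other run at the same offset. Searched on both strands as AGCCAATCNNNNNNNCTGACGACAC, it was found in 2 of 32817 promoter windows of the same length (0.00609%), those of Mstn and Gdf11. Because the block was taken from these 2 windows, both matches were fixed in advance, and the count shows only that no other window held it. The block spans positions -74 to -50 in Mstn and -222 to -198 in Gdf11, counted back from the start. TATAAA follows at -29 to -24 in Mstn and at -185 to -180 in Gdf11. The Gdf11 match lies farther from the start, and whether either match is used as a TATA box was not tested. The short elements within the block are common: CCAAT was found in 33.8% of windows, TGACG in 17.7% and, outside the block, TATAAA in 12.4%. The E-box CANNTG, to which myogenic factors can bind, had 4 matches in the Mstn window, of which the one at -52 to -47 overlaps the end of the block, and 1 in the Gdf11 window, and it was found in 66.2% of windows. The Smad box CAGAC had 2 matches in the Mstn window, none in the Gdf11 window and at least 1 in 42.2% of windows. The forkhead core GTAAACA had no match in either window and was found in 3.16% of windows. The windows also differ in base composition, with 38.4% G and C for Mstn and 81.2% for Gdf11.

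Total counts ranged from 32108684 to 38095211 in mKO libraries and from 34871043 to 42344238 in WT libraries. Hnrnpu itself had 205 to 210 CPM (read counts scaled to a common library size, in the usual counts-per-million unit) in mKO libraries and 233 to 247 CPM in WT libraries (log2 -0.20 with SE 0.10, adjusted p = 0.147 in edgeR). Its direction turned with library totals (0.27, adjusted p = 0.0405). Gene-level counts cannot show the loss of single exons. Of 16650 genes tested, 6166 (37.0%) passed an adjusted p of 0.05 in edgeR's quasi-likelihood test, 18.2% higher and 18.9% lower in mKO. CPM values here use library sizes scaled with TMM factors, which were 1.15 to 1.20 for mKO and 0.845 to 0.859 for WT libraries. With unscaled library totals the median over all genes shifted by 0.46 on the log2 scale, to 0.49 from 0.02 with TMM, and 87.9% of calls were higher in mKO, against 49.0% with TMM. Unless another scaling is named, each change is one against the bulk of genes after TMM scaling.

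Of the 10 genes, 9 passed the filter on low counts, all but Gdf5. In mKO muscle 4 of these 9 were lower (Mstn, Gdf11, Acvr2a and Acvr1b) and none was higher in edgeR, against a background of 37.0% of all genes changed and 18.9% lower. No gene of the 9 was higher at an unadjusted p under 0.05 (0 of 9), or at an adjusted p under 0.05 in DESeq2 (0) or limma-voom (0). DESeq2 called 6166 and limma-voom 6213 of all genes in either direction. The share of all genes higher at an unadjusted p under 0.05 was not counted. With only 18.2% of all genes called higher in edgeR, 0 of 9 is not read as a result about these genes. Mstn and Gdf11, the 2 genes that were called and lower by at least 4-fold, stand against 1.15% of all genes. Because the 10 genes were chosen with earlier results of these data known, this comparison is a description only. The median log2 fold change of the 9 genes was -0.43, beside 0.02 for all genes tested. The groups did not overlap for 5 of the 9 genes, against 49.3% of all genes. In this bulk tissue, fewer cells of a type and less RNA per cell cannot be told apart.

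**Figure D1:**
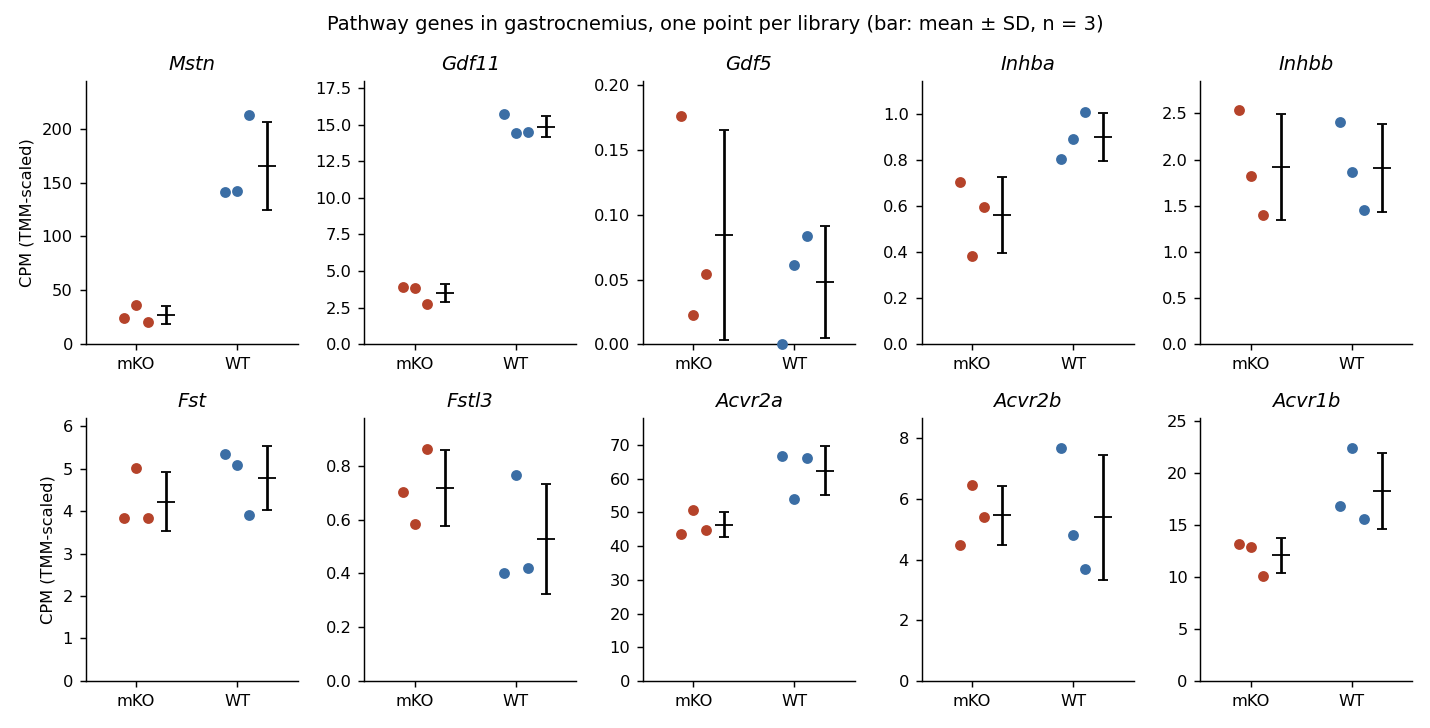
Level of each of the 10 genes in CPM of the TMM-scaled library size (vertical axes, linear and starting at 0), with mKO libraries in red left of WT libraries in blue; each point is 1 library and the black bar is the mean ± SD of 3. Mstn lies between 20.7 and 36.1 CPM in mKO and between 141 and 212 CPM in WT, and Gdf11 between 2.75 and 3.90 CPM in mKO and between 14.4 and 15.7 CPM in WT, while the points of Inhbb, Fst, Fstl3 and Acvr2b overlap between the groups.

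Mstn, which encodes myostatin, fell most. The gene (ENSMUSG00000026100) lies on the plus strand of chromosome 1 from 53061640 to 53068079 in GRCm38, with 3 exons that sum to 2705 bp. It had 24.4, 36.1 and 20.7 CPM in mKO replicates 1 to 3, against 141, 142 and 212 CPM in WT replicates 1 to 3. All mKO libraries were below all WT libraries, and the highest mKO value was well under the lowest WT value. The means were 27.1 ± 8.03 CPM in mKO and 165 ± 40.9 CPM in WT (SD, n = 3 each). The log2 fold change was -2.61 (SE 0.21), a level of 16.4% of WT, with an edgeR adjusted p of 2.71e-06. The raw counts behind these values were 768 to 1609 in mKO and 4223 to 7595 in WT libraries. By size this was the 95th largest fall among the 16650 genes tested.

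Gdf11, whose mature product is closely related to myostatin and which is expressed in many tissues, fell with it. The gene (ENSMUSG00000025352) is on chromosome 10, minus strand, at 128882295 to 128891718, with 3 exons of 4062 bp. It had 3.90, 3.81 and 2.75 CPM in mKO replicates 1 to 3, against 15.7, 14.4 and 14.5 CPM in WT replicates 1 to 3. The libraries of each group lay close together and the groups were far apart. The means were 3.49 ± 0.639 CPM in mKO and 14.9 ± 0.722 CPM in WT (SD, n = 3 each), and the log2 fold change was -2.08 (SE 0.16), 4.24-fold lower, with an edgeR adjusted p of 2.08e-06. Counts were 102 to 177 in mKO and 470 to 518 in WT libraries.

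Most of the chosen myofibre marker transcripts were also lower. Of 7 myofibre marker genes (Acta1, Ckm, Myh4, Myh1, Pvalb, Actn3 and Tnnt3), 6 fell and none rose, against 18.9% of all genes lower. With library totals 5 fell, against 6.75% of all genes. The median log2 fold change of the 7 markers was -1.30 with TMM scaling, and none of them was at 0 in any library. Their summed level was 41949 to 48814 CPM in mKO and 101378 to 119924 CPM in WT libraries. Myh4 and Ckm made up the largest parts, with means of 14346 and 10131 CPM in mKO and 42715 and 26397 CPM in WT. Acta1 was uneven, with 15714 CPM in WT replicate 2 against 7085 and 6985 CPM in WT replicates 1 and 3. Whether the sum follows the amount or the type of fibre was not tested. Mstn was lower in mKO also when set against these markers: as CPM of the summed marker counts, it had 578, 861 and 424 in mKO replicates 1 to 3, against 1314, 1185 and 2094 in WT replicates 1 to 3. Gdf11 had 92.4, 90.9 and 56.4 in mKO replicates 1 to 3, against 146, 120 and 143 in WT replicates 1 to 3. For both genes the groups still did not overlap. With libraries scaled to the summed markers, a choice made after the data were seen, the edgeR log2 fold changes were -1.30 (SE 0.21, adjusted p = 2.76e-07) for Mstn and -0.77 (SE 0.21, adjusted p = 0.000993) for Gdf11. With library totals 2 of the 9 genes were called, both lower (Mstn and Gdf11), against a background of 55.7% of all genes called, 49.0% higher and 6.75% lower. Their log2 fold changes were then -2.14 (adjusted p = 6.56e-06) and -1.62 (adjusted p = 1.23e-05).

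The activin subunit genes were expressed at low levels and did not pass the test. Inhba, which encodes the subunit of activin A, had 0.705, 0.381 and 0.593 CPM in mKO replicates 1 to 3 and 0.801, 0.888 and 1.01 CPM in WT replicates 1 to 3. These come from 17 to 32 counts in mKO and 24 to 36 counts in WT libraries. All mKO values were below all WT values, but the log2 fold change of -0.68 had an SE of 0.38 (edgeR adjusted p = 0.176). Inhbb, which encodes the subunit of activin B, had 2.53, 1.82 and 1.40 CPM in mKO replicates 1 to 3 and 2.40, 1.87 and 1.45 CPM in WT replicates 1 to 3. Its libraries covered the same range in both groups, with a log2 fold change of 0.02 (SE 0.29, edgeR adjusted p = 0.969). A p above the threshold does not show that these genes were the same in both groups, and at this depth a log2 difference of the size of the SE could not be told from 0.

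Gdf5, the BMP-branch ligand gene, was close to the limit of detection and was not tested. It had 8, 1 and 2 counts in mKO replicates 1 to 3 and 0, 2 and 3 counts in WT replicates 1 to 3. The 8 counts of mKO replicate 1 made up most of the mKO sum of 11, against a WT sum of 5. Relative to the scaled library sizes, the mKO sum was 1.70 times the WT sum, with an exact binomial 95% interval of 0.546 to 6.25 that covers counting error only. No difference was detectable at this depth. In addition, 936 bp of its exons overlap those of Gm15557 on the opposite strand, and the library kit that the labels name leaves strand unmarked.

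Neither antagonist gene was called. Fst, which encodes follistatin, had 3.83, 5.03 and 3.83 CPM in mKO replicates 1 to 3 and 5.34, 5.09 and 3.91 CPM in WT replicates 1 to 3. The groups overlapped, and the log2 fold change was -0.17 (SE 0.20), with an edgeR adjusted p of 0.526; it was 0.29 with library totals (adjusted p = 0.232). Fstl3 had 0.705, 0.583 and 0.863 CPM in mKO replicates 1 to 3 and 0.401, 0.766 and 0.419 CPM in WT replicates 1 to 3. WT replicate 2 lay above the lowest mKO library, and the log2 fold change of 0.43 had an SE of 0.41 (edgeR adjusted p = 0.446). With library totals the groups no longer overlapped and it was 0.89 (adjusted p = 0.0820). Of the Fstl3 exons, 1157 bp overlap Prss57 on the opposite strand, a gene with at most 6 counts in any library.

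Among the receptors, Acvr2a and Acvr1b were somewhat lower with TMM scaling and Acvr2b was not called. Acvr2a, the type II receptor gene with the highest level, had 43.7, 50.7 and 44.7 CPM in mKO replicates 1 to 3 and 66.9, 53.9 and 66.3 CPM in WT replicates 1 to 3. The groups did not overlap, though mKO replicate 2 and WT replicate 2 came close, and the log2 fold change was -0.43 (SE 0.12), with an edgeR adjusted p of 0.0135. Acvr1b, which encodes the type I receptor ALK4, had 13.1, 12.9 and 10.1 CPM in mKO replicates 1 to 3 and 16.8, 22.4 and 15.5 CPM in WT replicates 1 to 3. All mKO libraries were below all WT libraries, with a log2 fold change of -0.60 (SE 0.16, edgeR adjusted p = 0.0117). Acvr2b had 4.49, 6.46 and 5.42 CPM in mKO replicates 1 to 3 and 7.68, 4.81 and 3.69 CPM in WT replicates 1 to 3. WT libraries spanned more than the whole mKO range, and the log2 fold change was 0.02 (SE 0.25), with an edgeR adjusted p of 0.953.

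Both receptor calls rested on the scaling and on single libraries. With library totals the log2 fold change of Acvr2a was 0.04 (adjusted p = 0.808) and that of Acvr1b -0.13 (adjusted p = 0.523), and relative to the summed myofibre markers both were higher in mKO (0.87 and 0.74). Without WT replicate 1 the adjusted p of Acvr2a was 0.0513 and without mKO replicate 3 it was 0.0652, in a range of 2.34e-05 to 0.808 over 17 alternatives. Without mKO replicate 3 the adjusted p of Acvr1b was 0.0672, in a range of 0.000351 to 0.523, and the number of the 9 genes called was then 2. Both ranges include the scaling to the summed markers, in which both genes were higher, and so mix the 2 directions. Of the Acvr2a exons, 446 bp overlap Orc4 on the opposite strand, which had 1573 to 1879 counts in mKO and 1316 to 1940 in WT libraries, so some reads of that stretch could belong to either gene.

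**Figure D2:**
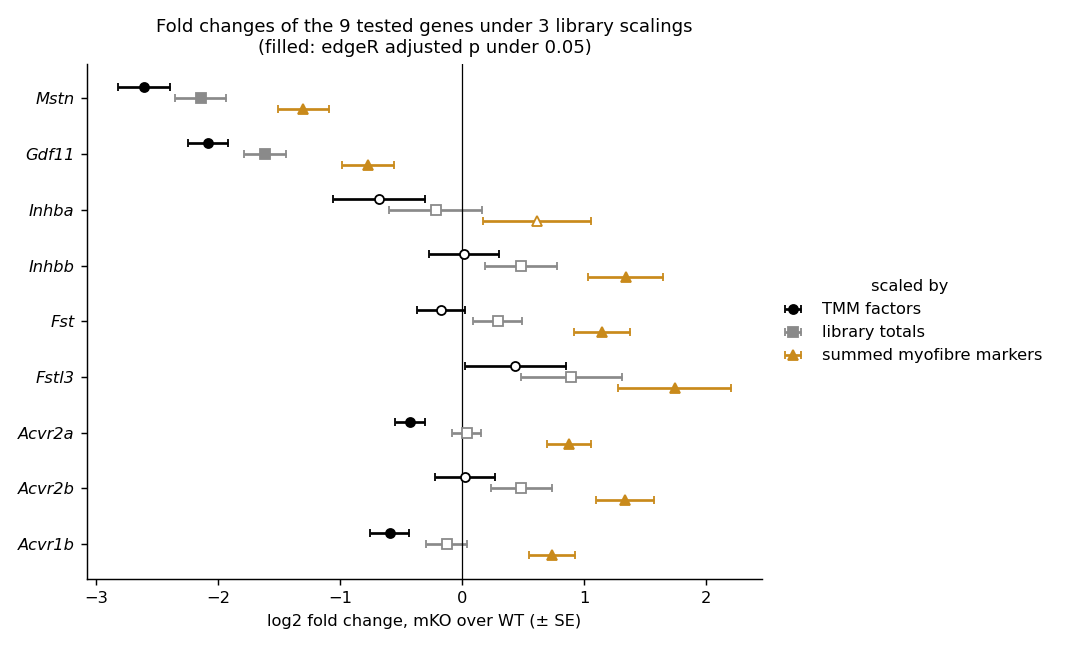
Log2 fold change of mKO over WT (horizontal axis, with SE bars) for the 9 tested genes, from edgeR with TMM factors (black circles), library totals (grey squares) and libraries scaled to the summed myofibre markers (orange triangles); filled symbols passed an adjusted p of 0.05. Mstn and Gdf11 lie left of 0 under each of these 3 scalings, from -2.61 to -1.30 and from -2.08 to -0.77, whereas Inhba, Fst, Acvr2a and Acvr1b lie on different sides of 0 depending on the scaling.

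Levels of different genes were compared per length, as CPM per kilobase of listed exon. Mstn stood first among the 10 genes in both groups, with 10.01 ± 2.97 in mKO and 61.0 ± 15.1 in WT (SD, n = 3 each). In mKO its libraries overlapped those of the next gene, Acvr2a (8.16 ± 0.664), which they did not in WT (Acvr2a 10.97 ± 1.28). Gdf11 stood in place 6 in mKO (0.859 ± 0.157), below Acvr1b, Fst and Acvr2b, and after Acvr1b in WT (3.66 ± 0.178), where its libraries overlapped those of Acvr1b (4.13 ± 0.825). Fst (1.81 ± 0.295 in mKO and 2.05 ± 0.326 in WT) and Acvr2b overlapped each other in both groups. Inhbb, Fstl3 and Inhba followed, with overlap between Inhbb and Fstl3 and between Fstl3 and Inhba in mKO and between Inhba and Inhbb in WT, and Gdf5 was last. Mstn made up 82.0 to 89.5% of the summed level of the 5 ligand genes in mKO and 91.5 to 94.6% in WT. That summed ligand level was 8.99 to 14.9 in mKO and 56.9 to 82.9 in WT, while the summed level of Fst and Fstl3 was 1.93 to 2.39 in mKO and 1.85 to 2.49 in WT.

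The ratio of 2 genes within a library does not depend on how libraries are scaled to each other. Mstn exceeded Fst per length by 5.50, 6.21 and 4.67 times in mKO replicates 1 to 3, against 22.8, 24.1 and 46.9 times in WT replicates 1 to 3. The groups were separate, and the log2 ratio was 2.44 ± 0.205 in mKO and 4.89 ± 0.578 in WT (SD, n = 3 each), a difference of -2.45. Mstn exceeded Acvr2b by 7.89, 8.11 and 5.55 times in mKO replicates 1 to 3, against 26.7, 42.9 and 83.6 times in WT replicates 1 to 3, a log2 difference of -2.69. A two-sided exact permutation test gave p = 0.1 for both ratios, which is the lowest possible with 3 libraries a group, and 0.2 after Benjamini-Hochberg adjustment over 6 ratios. The other 4 ratios overlapped between the groups, each with an exact permutation p of 0.2. Their log2 differences were -0.51 for Mstn to Gdf11, 0.72 for Inhbb to Inhba, -0.66 for Fst to Fstl3 and 0.49 for Acvr2b to Acvr2a. Mstn stood to Gdf11 in a ratio of 9.40 to 14.2 in mKO libraries and 13.5 to 22.02 in WT libraries.

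**Figure D3:**
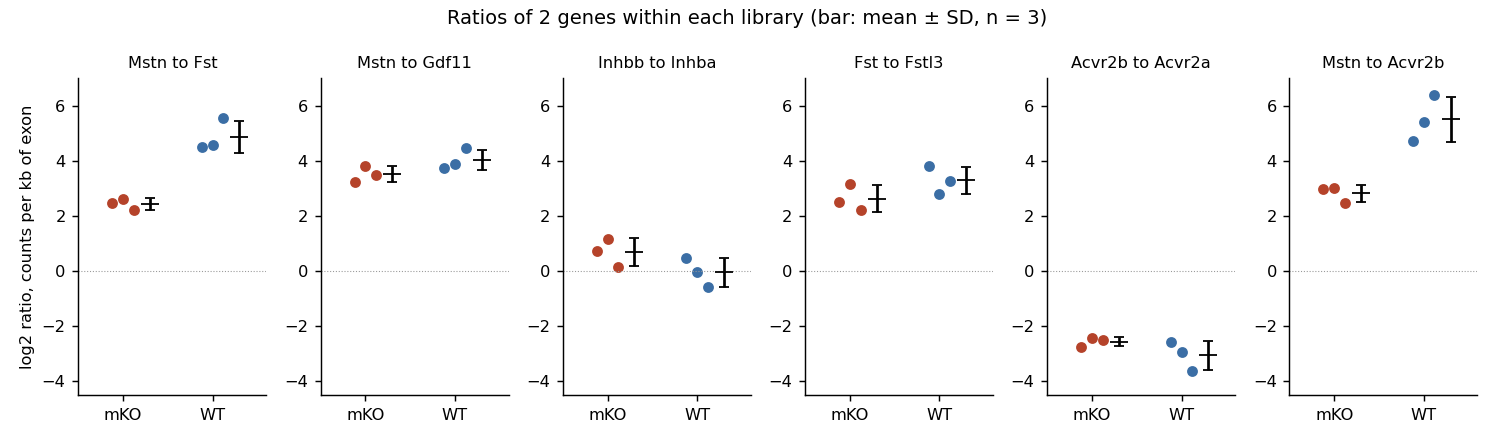
Log2 ratio of the length-scaled counts of 2 genes in each library (vertical axis, the same for the 6 panels), with mKO libraries in red left of WT libraries in blue; points are libraries and black bars the mean ± SD of 3. The ratios of Mstn to Fst and of Mstn to Acvr2b are separate between the groups, with log2 differences of -2.45 and -2.69, and the other 4 ratios overlap.

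The wider pathway was followed in 8 lists with 101 genes, of which 90 were tested; 22 were higher and 19 lower in mKO, 45.6% called against the background of 37.0%. With library totals 45 were higher and 5 lower, against 49.0% of all genes higher and 6.75% lower. The same shares are the background for each list and marker group below. With TMM scaling they were 18.2% higher and 18.9% lower. Among other antagonists and carriers 3 of 16 rose and 1 fell, with a median log2 fold change of -0.07 (8 rose and 1 fell with library totals, median 0.40). The fall was that of Wfikkn2, which encodes GASP-1, a secreted protein that binds myostatin and GDF11. It had 1.06, 1.41 and 0.809 CPM in mKO replicates 1 to 3, against 4.84, 5.24 and 3.69 CPM in WT replicates 1 to 3, with no overlap and a log2 fold change of -2.06 (SE 0.25, edgeR adjusted p = 5.73e-05). Bgn, which encodes the matrix proteoglycan biglycan, rose (79.7 ± 11.8 CPM in mKO and 35.7 ± 2.08 CPM in WT, log2 1.16), as did Fstl1, a secreted follistatin-like protein gene (244 ± 35.1 CPM in mKO and 152 ± 7.38 CPM in WT, log2 0.68). Igsf1 also passed (log2 1.02, edgeR adjusted p = 0.0418), with 1.30, 4.13 and 2.32 CPM in mKO replicates 1 to 3, against 1.24, 1.26 and 1.31 CPM in WT replicates 1 to 3, so that mKO replicate 1 lay within the WT range. Of the 6 tested proteases that cleave precursors or propeptides of the family, 2 rose and none fell, with a median of 0.14 (4 rose with library totals). Called with TMM were Pcsk5 (log2 0.63, adjusted p = 0.0116, and 0.0666 without mKO replicate 1) and Furin (log2 0.66, adjusted p = 0.0272). The Furin call was lost without WT replicate 2 (0.0644), WT replicate 3 (0.113), mKO replicate 2 (0.108) or mKO replicate 3 (0.0647).

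Of 15 tested other ligands 4 rose and 3 fell, with a median log2 fold change of -0.29 (4 rose and none fell with library totals). Gdf15, a stress-induced ligand gene, had 71 counts in mKO and 1 in WT, a ratio of 55.0 with an exact 95% counting interval of 9.55 to 2201. Gdf3 had 57 counts in mKO, 35 of them in replicate 1, and 0 in WT. Taking 3 counts summed over WT as the floor, the ratio was 14.7, with an exact 95% counting interval of 4.79 to 73.4. Tgfb1 had 3.28 ± 0.153 CPM in mKO and 1.54 ± 0.191 CPM in WT (SD, n = 3 each; log2 1.08), and Inha, the inhibin alpha subunit gene, had 1.75 ± 0.282 CPM in mKO and 0.756 ± 0.202 CPM in WT (log2 1.21). Tgfb3, Bmp4 and Bmp6 were lower (log2 -0.35, -0.60 and -0.85), and with library totals none of these 3 passed and Tgfb3 turned to 0.12. Macrophage markers were higher in mKO as well. All 6 were higher (Adgre1, Csf1r, Cd68, Mrc1, Cd163 and C1qa), none was at 0, and their sum was 259 to 368 CPM in mKO and 147 to 162 CPM in WT; their part in these results was not tested.

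Downstream, calls among the Smad genes went both ways. Of 17 tested Smads and regulators, 3 rose and 6 fell, with a median log2 fold change of -0.16 (8 rose and 3 fell with library totals). The 3 that rose were Smad1 (log2 0.58), Ski (0.41) and Tgif1 (0.83). Smad3, which carries the myostatin and activin signal to DNA, had 59.5 ± 2.32 CPM in mKO and 114 ± 22.2 CPM in WT (log2 -0.94, SE 0.14, edgeR adjusted p = 0.000205). Zfyve9, which encodes SARA, the anchor that presents SMAD2 and SMAD3 to the receptor, had 110 ± 7.16 CPM in mKO and 194 ± 21.2 CPM in WT (log2 -0.82). Ppm1a, a phosphatase gene that can switch off SMAD2 and SMAD3, had 113 ± 8.87 CPM in mKO and 224 ± 16.8 CPM in WT (log2 -0.99). Of 10 other receptors none rose and 4 fell, namely Amhr2 (log2 -0.97), Tgfbr1 (-0.55), Bmpr2 (-0.42) and Bmpr1a (-0.34), with a median of -0.17. With library totals none of these 4 passed and Bmpr2 turned to 0.04 and Bmpr1a to 0.12, while 3 other receptors rose.

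Of 9 genes known as SMAD2 and SMAD3 targets 6 rose and none fell, with a median log2 fold change of 1.08, and 9 rose with library totals. Of all genes, 18.2% rose with TMM scaling and 49.0% with library totals. Postn, a matrix protein gene, had 234 ± 70.0 CPM in mKO and 29.9 ± 1.06 CPM in WT (log2 2.96). Ltbp2 had 3.14 ± 0.884 CPM in mKO and 0.463 ± 0.111 CPM in WT (log2 2.76). These genes are also expressed by fibroblasts and other matrix cells. Of 5 fibro-adipogenic markers none was called (sum 255 to 371 CPM in mKO and 284 to 295 CPM in WT). Of 4 tendon markers 2 rose, Thbs4 and Tnmd, and none fell (sum 468 to 492 CPM in mKO and 241 to 278 CPM in WT). Most of the tendon sum was Thbs4 (439 ± 16.9 CPM in mKO and 225 ± 18.6 CPM in WT). The rise of Tnmd (log2 0.44) was weaker in 3 of the 6 fits that leave out 1 library. With library totals 4 of the 5 fibro-adipogenic and 3 of the 4 tendon markers rose. No marker of either list was at 0, and the part of these cells was not tested. Of 7 tested BMP targets 1 rose and 2 fell, with a median of 0.14 (2 rose and none fell with library totals). Id2 rose (log2 1.32, adjusted p = 0.00049), and Id1 and Hey1 fell (log2 -0.78 and -0.77). The Id1 call was lost without WT replicate 3 (adjusted p = 0.0871) or mKO replicate 3 (0.0591). That of Hey1 was lost without WT replicate 1 (0.109), mKO replicate 1 (0.0765), mKO replicate 2 (0.0577) or mKO replicate 3 (0.0793), and neither was called with library totals (0.249 and 0.323). All 5 endothelial markers were lower beside them (sum 139 to 153 CPM in mKO and 221 to 291 CPM in WT), none was at 0, and their part was not tested. With library totals 2 of these 5 markers, Kdr and Emcn, were still called lower.

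Of 10 tested genes of the atrophy and denervation output, 3 rose and 3 fell, with a median log2 fold change of 0.01. With library totals 7 rose and 1 fell, with a median of 0.47. Gadd45a, a growth-arrest gene raised in denervated muscle, had 61.4 ± 5.21 CPM in mKO and 8.65 ± 2.44 CPM in WT (log2 2.83). Chrng, the fetal acetylcholine receptor subunit gene, had 346 counts in mKO and 2 in WT, a ratio of 134 with an exact 95% counting interval of 36.8 to 1110. Dach2, a repressor of myogenin in innervated muscle, had 0.472 ± 0.107 CPM in mKO and 7.05 ± 2.56 CPM in WT (log2 -3.88). The remaining changed genes are named after their values were seen. Myog rose (log2 2.36), and Fbxo32 and Trim63, the genes of the ubiquitin ligases atrogin-1 and MuRF1, fell (log2 -0.44 and -0.67); with library totals Fbxo32 was at 0.02 (adjusted p = 0.867) and Trim63 at -0.21 (adjusted p = 0.160).

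**Figure D4:**
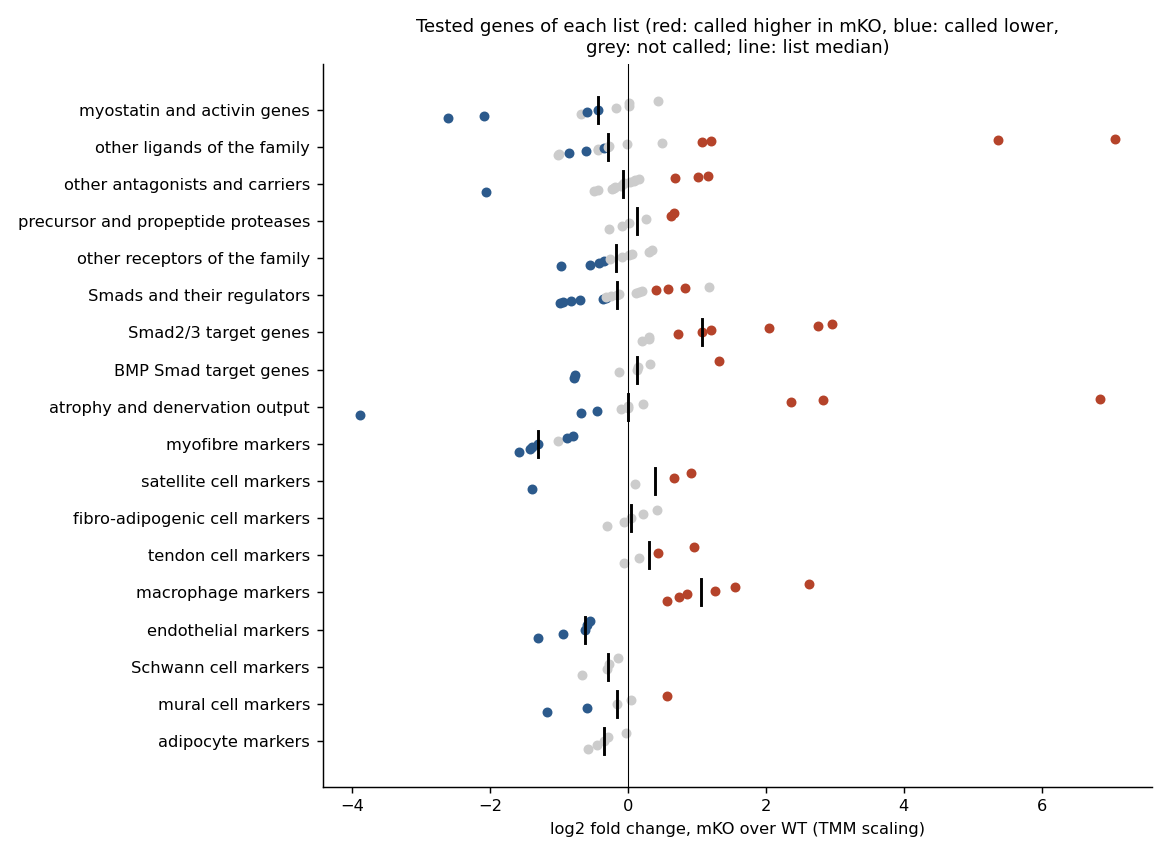
Log2 fold change of mKO over WT with TMM scaling (horizontal axis) for every tested gene of the myostatin and activin group, the 8 pathway lists and the 9 cell type marker lists (rows); each point is 1 gene, red where called higher, blue where called lower and grey where not called, and the black line is the median of the row. Smad2/3 targets and macrophage markers lie to the right of 0 with medians of 1.08 and 1.06, and myofibre and endothelial markers to the left with medians of -1.30 and -0.61.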

How the data were processed

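The deposited files hold raw counts per gene, whole numbers in 1 table per library; the exon length of each gene comes from the same tables, per the file headers. Reads had been trimmed, aligned and counted with tools that the submitters' processing notes list as Trimmomatic 0.36, STAR 2.5.2b and Subread featureCounts 1.5.2, on GRCm38 (mm10). How strand and multi-mapped reads were handled is not stated there. Libraries were made from total RNA with a NEBNext Ultra kit, per the labels' protocols. Symbols came from a table of gene names matched by Ensembl identifier (48970 of 49315 genes matched).

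The test was edgeR 4.0.16 (quasi-likelihood, in R 4.3.3). It used TMM factors, filterByExpr at its defaults and Benjamini-Hochberg adjustment over 16650 genes at 0.05, with group as the only term. SE is that of the log2 fold change. The biological coefficient of variation was 16.1%. The edgeR fit was first tested on simulated data. Replicates differed beyond sampling noise (chi-square per degree of freedom 20.9 to 57.7). Alternatives were DESeq2 1.42.0, limma-voom (limma 3.58.1), other scaling and filters, robust dispersion, tests without mitochondrial and the 10 most abundant genes, a replicate block and leaving out each library. Ratios used exact permutation in scipy 1.17.1.

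The 10 genes and all lists were chosen with earlier results of these data known. The text names the 10 genes, Hnrnpu, and up to 3 called genes of each pathway list by lowest p, and up to 2 of each marker list. Others (Inha, Tgfb3, Bmp4, Bmp6, Igsf1, Bmpr1a, Smad1, Ski, Tgif1, Myog, Fbxo32 and Trim63) were named after their values were seen. Of the genes that this rule selects, 1 is not reported here. No list was tested as a set. Intervals and floors cover counting error only.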

Additional observations from a re-analysis of the deposited data

How the results depend on the processing

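The falls of Mstn and Gdf11 kept their direction and passed the threshold under each of 17 alternatives (log2 -2.86 to -1.30 and -2.17 to -0.77). With library totals 9275 genes were called, of which 2 were among the 10 genes (Mstn and Gdf11); Fst (0.29), Acvr2a (0.037), Hnrnpu (0.27), Bmpr2 (0.040), Bmpr1a (0.12), Tgfb3 (0.12) and Fbxo32 (0.02) turned positive, and Acvr1b (-0.13) lost its call. Scaled to the summed myofibre markers, an alternative chosen after seeing the data, 8 of the 9 genes were called: Inhbb (1.34), Fst (1.15), Fstl3 (1.74), Acvr2a (0.87), Acvr2b (1.33) and Acvr1b (0.74) higher, beside Mstn and Gdf11 lower, and Inhba (0.61) turned positive without a call. These shifts follow from the scaling. How many of all genes were called under it was not counted, so the 8 calls have no background beside them. Over the fits that leave out 1 library, the number of these genes called ranged from 2 to 4 and that of all genes from 4766 to 6255; log2 fold changes ranged from -0.53 to -0.38 for Acvr2a, -0.70 to -0.43 for Acvr1b, -0.24 to 0.21 for Inhbb and -0.20 to 0.36 for Acvr2b, the last 2 never called. The log2 difference of the ratio of Mstn to Fst ranged from -2.63 to -2.11, and that of Mstn to Acvr2b from -3.08 to -2.26.

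The replicate numbers share no stated source, and same-numbered libraries did not deviate together (correlations -0.01, -0.02 and 0.04), so the replicate block is not a paired design. With it the 4 calls among the 10 genes were kept, Inhbb turned to -0.0030 and Hey1 lost its call (adjusted p = 0.0533). Inhba, Fstl3 and Gdf5 rest on at most 36 counts a library, which limits what can be seen of them.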

Other observations

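The genes whose pattern over the 6 libraries was most like that of each of the 3 more abundant members (mean CPM of at least 10) were found by Pearson's r of log2 CPM among 7334 genes, as a description; r mostly reads the difference between the groups, and the libraries share depth and scaling. Nearest to Mstn were Enpp2, the gene of the lysophospholipase autotaxin (r = 0.998; 22.01 CPM in mKO and 41.6 CPM in WT), Maip1 (r = 0.997) and the small GTPase gene Rab12 (r = 0.996; 47.3 CPM in mKO and 110 CPM in WT). Nearest to Acvr2a were Zfr, Cul3 and Anapc4 (r = 0.997, 0.995 and 0.995), and nearest to Acvr1b were Ddx23, Fam173a and Stx16 (r = 0.999, 0.996 and 0.994).

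Markers of other cell types in the same muscles moved less uniformly. Of 4 satellite cell markers 2 rose and 1 fell: Vcam1 (log2 0.67) and Pax7 (0.91) were higher and Calcr (-1.39) lower. Their sums were 14.5 to 16.2 CPM in mKO and 8.34 to 12.9 CPM in WT. Most of each sum was Vcam1 (11.1 ± 1.40 CPM in mKO and 6.97 ± 2.29 CPM in WT). The calls of Vcam1 and Calcr were each lost without 3 of the 6 libraries in turn, and that of Calcr also with library totals (adjusted p = 0.0766). Of 5 mural cell markers Rgs5 (log2 -1.17) and Myh11 (-0.59) fell and Acta2 (0.57) rose. With library totals 2 mural markers rose and 1 fell, and Myh11 was not called (log2 -0.12, adjusted p = 0.502). None of 4 Schwann cell and 5 adipocyte markers was called in edgeR. Pax7 and Myh11 were named after their values were seen.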
